A study of Mus musculus with 16 samples.

Results

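The 86 genes described here encode, by their symbols, the nuclear subunits of the 5 oxidative phosphorylation complexes. They were picked from the 20622 genes of the files by symbol alone (*Nduf* followed by a, b, c, s or v and a digit, *Sdha* to *Sdhd*, *Uqcr*, *Cyc1*, *Cox4* to *Cox8* and *Atp5*). Of these genes 38 belong by symbol to complex I, 4 to complex II, 9 to complex III, 18 to complex IV and 17 to complex V. The symbol rule leaves out *Ndufab1*, a complex I subunit that was listed with the electron carriers instead. It places *Ndufa4* in complex I, although the protein is now known as a subunit of complex IV, and it takes in *Atp5s*, whose protein is not regarded as a structural subunit of the ATP synthase. The 13 subunits encoded by mitochondrial DNA were not analysed here.

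Fragments protected by ribosomes (RPFs) were sequenced together with cytoplasmic total RNA from the same lysates of KMNTC and KM4A2cr cells, in 4 replicates made on different days. KM cells were isolated from lung tumours of a genetically engineered mouse with Rosa26 LSL-MYC on both alleles, so both lines carry the MYC transgene. KMNTC cells received a non-targeting guide in a lentiCRISPR vector, and KM4A2cr cells a guide against *Eif4a2*. KM4A2cr cells are a pool of 4 clones chosen for lacking the eIF4A2 protein, so effects of clonal selection and of the deletion cannot be told apart. All cells were untreated. Pairs of libraries with the same replicate number were compared, to ask whether footprints or mRNAs of the respiratory machinery differ between lines whose energy metabolism the study also examined.

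Complexes I and II pass electrons from NADH and succinate to ubiquinone, complex III passes them on to cytochrome c, and complex IV to oxygen. Complexes I, III and IV pump protons out of the mitochondrial matrix, and complex V, the ATP synthase, uses their return to make ATP. Each complex except complex II joins subunits made on cytosolic ribosomes to subunits made inside the mitochondrion, and several nuclear subunits have paralogues that are made mainly in muscle, testis or hypoxic cells.

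Depth ran from 4512403 to 9621848 counts in the RPF libraries and from 5350920 to 9312624 in total RNA, and replicate 4 was the lowest of its line in both kinds of library. Replicate 4 also stood apart in the genes described here. Averaged over both lines, the median member was 0.20 higher on the log2 CPM scale in replicate 4 than its mean over replicates in RPFs, and 0.10 higher in total RNA. Calls of these genes are therefore given with and without replicate 4. RPFs of the targeted gene *Eif4a2* were at 97.7, 122, 99.8 and 389 CPM in KMNTC replicates 1 to 4 and at 51.0, 88.4, 74.8 and 346 CPM in KM4A2cr, lower in KM4A2cr in 4 of 4 pairs. Its log2 fold change was -0.49 in RPFs (standard error 0.15, adjusted p = 0.0941 by edgeR, Benjamini-Hochberg) and -0.18 in total RNA (adjusted p = 0.504 by the same test). The RPF call of *Eif4a2* was lost without replicate 1, 2 or 3, and these counts do not measure the protein. Of 10 lung epithelial markers 5 reached 1 TPM in total RNA, and the surfactant genes *Sftpc*, *Sftpb* and *Sftpa1* and the lineage factor *Nkx2-1* did not. Of 22 fibroblast, leukocyte and endothelial markers 2 did, and the summed leukocyte markers, of which *Cd68* alone passed 1 TPM, ranged from 33.4 to 221 TPM in KMNTC and from 37.7 to 155 TPM in KM4A2cr.

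In total RNA the messages were abundant and unequal. TPM, which is scaled for transcript length and so allows levels of different genes to be compared, added up to between 1.59 and 2.13% of each library over the 86 genes. *Cox7c*, a small complex IV subunit, was the most abundant in KMNTC cells with 1027 ± 214 TPM (SD, n = 4). *Ndufa4* followed with 942 ± 231 TPM, and these levels overlap within their SD. *Cox4i1*, the largest nuclear subunit of complex IV, had 818 ± 33.1 TPM, *Atp5b*, the catalytic beta subunit of the ATP synthase, 622 ± 127 TPM, and *Uqcrh*, the hinge protein of complex III, 611 ± 180 TPM. Complex IV had the highest median member, at 424 TPM, and complex II the lowest, at 63.5 TPM, with 327 TPM for complex III, 265 TPM for complex V and 130 TPM for complex I. Within complex I the levels ran from 21.2 TPM for *Ndufv3* to 942 TPM for *Ndufa4*, a 44.5-fold range. The NADH-oxidising core subunits *Ndufs1* and *Ndufv1* were at 26.0 ± 6.93 and 44.6 ± 11.2 TPM, below most small accessory subunits.

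**Figure D1:**
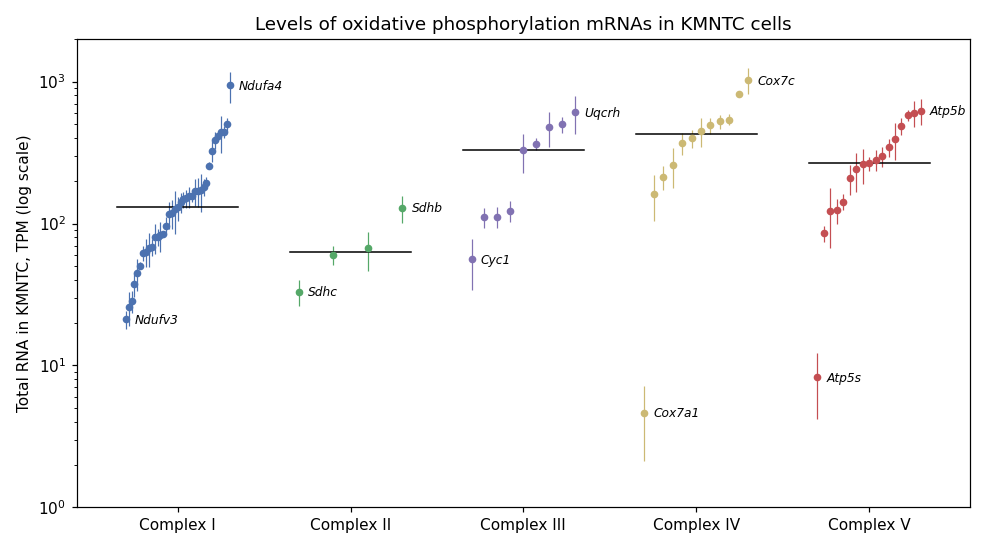
Level of each oxidative phosphorylation mRNA with a mean of at least 1 TPM in total RNA of KMNTC cells, on a log axis in TPM, by complex. Points are means and bars SDs of 4 libraries, black lines are medians over the genes of a complex, and the lowest and highest gene of each complex are named. Complex IV has the highest median (424 TPM) and *Cox7a1* and *Atp5s* lie far below the other genes.

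The levels also show which paralogues these cells use. *Ndufa4l2*, *Cox4i2*, *Cox6a2*, *Cox6b2*, *Cox7b2*, *Cox8b* and *Cox8c*, the forms known from hypoxic cells, muscle or germ cells, had at most 2 RPF counts over the 4 libraries of either line and did not pass the filter on low counts. Their ubiquitous counterparts were all tested. *Cox7a1*, the muscle form of subunit 7a, had 85 RPF counts over 4 libraries in each line and 4.64 ± 2.51 TPM in KMNTC cells, and passed the filter in RPFs only. In KM4A2cr cells it stood at 8.22 ± 4.52 TPM, and the lines overlapped. In all, 79 of the 86 genes were tested in RPFs and 78 in total RNA and translational efficiency.

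In RPFs 2 of the 79 genes were called lower in KM4A2cr cells and 0 higher, at an adjusted p under 0.1 in the quasi-likelihood test of edgeR, with Benjamini-Hochberg correction across every gene tested. Of all 10291 genes tested 10.3% were called, 6.6% higher and 3.72% lower. An unadjusted p under 0.05 was reached by 10 of the 79. Without the replicate block 0 members were called in any readout. In total RNA 0 of 78 were called by edgeR, against 6.13% of all genes (4.35% higher and 1.78% lower), with 6 at an unadjusted p under 0.05 and 0 by DESeq2. In translational efficiency, the change in RPFs relative to total RNA, 1 of 78 was called, lower, against 2.87% of all genes (1.87% higher and 1% lower). The RPF log2 fold changes of members lay between -0.50 and 0.42, and their median size was 0.13 against 0.22 over all genes. Fitted on replicates 1 to 3 alone, 33.4% of all genes were called in RPFs, 19.1% higher and 14.3% lower, and of the 79 members 3 were called higher and 19 lower. In total RNA the same fit called 29.8% of all genes and, of the 78 members, 2 higher and 12 lower.

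**Figure D2:**
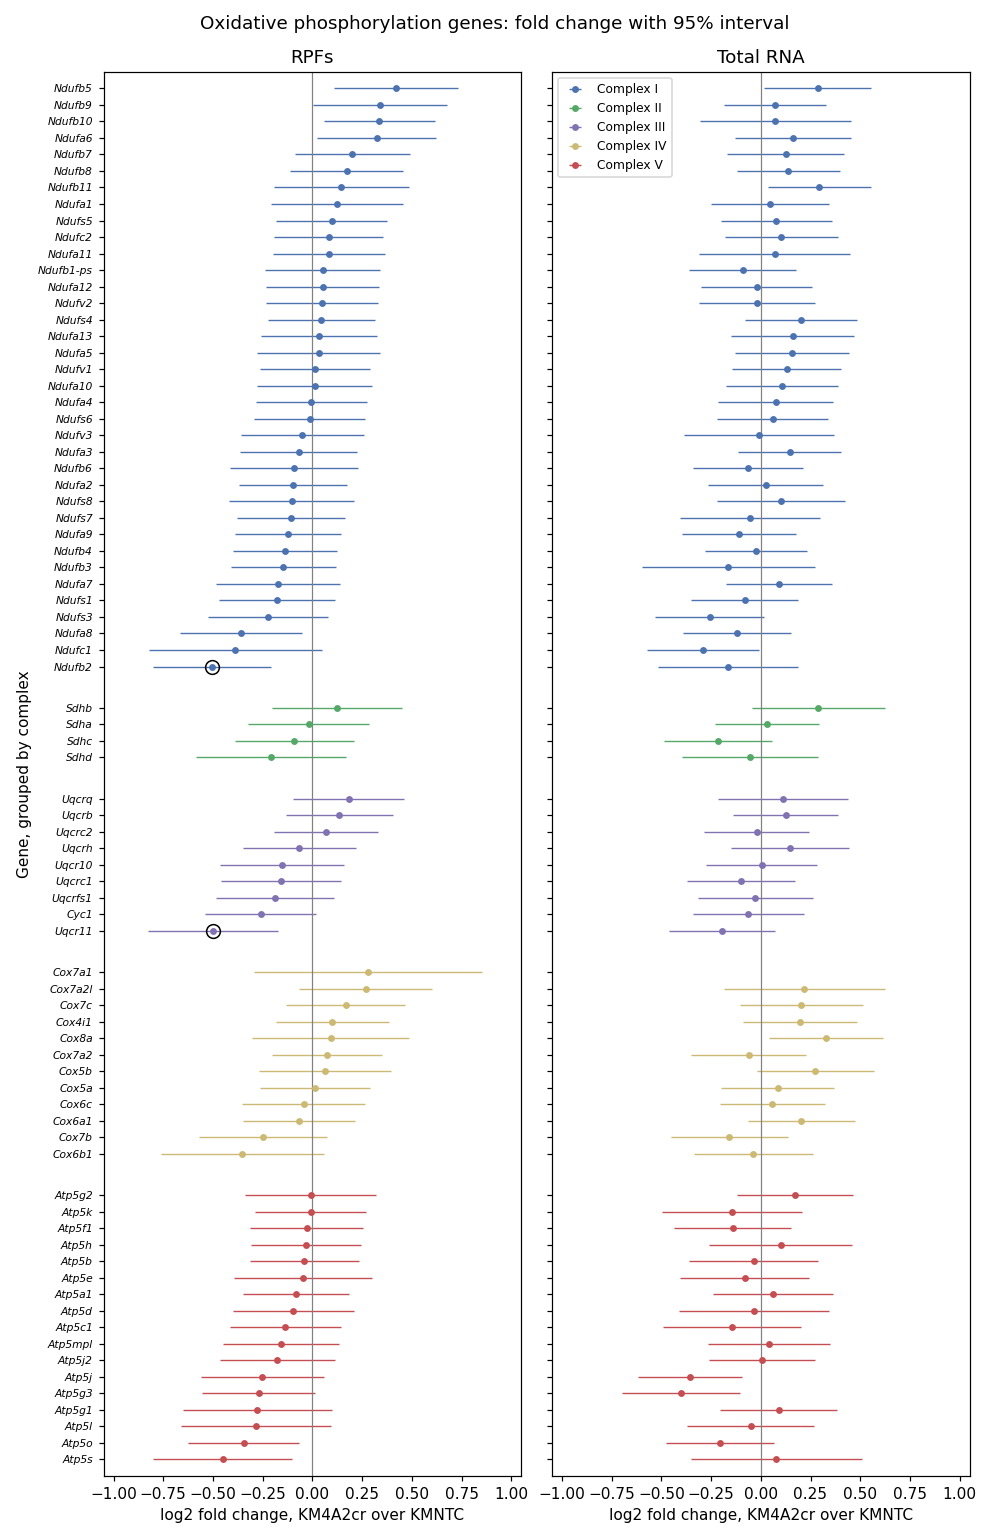
Log2 fold change of KM4A2cr over KMNTC for each gene tested and reported here, in RPFs (left) and total RNA (right), grouped by complex and sorted within it by the RPF value. Points are edgeR estimates from 4 replicate pairs, bars are 95% intervals, and circles mark genes with an adjusted p under 0.1. Only *Ndufb2* and *Uqcr11* are circled, both in RPFs, and all 17 complex V genes lie left of 0 in RPFs.

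The intervals bound what a change could be. All 79 members had a 95% interval of the RPF log2 fold change that lay inside a 2-fold change in either direction, against 85.6% of all genes tested. For 63 of the 79 it lay inside 1.5-fold. In total RNA 72 of 78 lay inside 1.5-fold, and in translational efficiency 75 of 78. The median standard error of a member was 0.13 in RPFs against 0.16 over all genes. A 2-fold change of any 1 member lies outside its interval.

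Complex I, the NADH dehydrogenase, had 37 genes tested. Their RPF median was 0.011, with 19 above and 18 below 0, against -0.009 over all genes. *Ndufb2* (ENSMUSG00000002416.14), a small accessory subunit of the membrane arm, was the lowest and the only one called. Its RPFs were at 66.0, 46.3, 65.7 and 35.7 CPM in KMNTC replicates 1 to 4 and at 50.2, 36.7, 38.6 and 24.8 CPM in KM4A2cr. KM4A2cr was lower in each of the 4 pairs, although the lines overlap when the pairing is ignored. The log2 fold change was -0.50 (standard error 0.13, 95% interval -0.80 to -0.21, adjusted p = 0.0669 by edgeR, Benjamini-Hochberg). In total RNA it was -0.17 (adjusted p = 0.630 by edgeR), where pair 4 went the other way. The call of *Ndufb2* was lost without replicate 1, 2 or 3, with adjusted p-values from edgeR between 0.164 and 0.357, and held without replicate 4 (adjusted p = 0.00998 by edgeR). In that fit 3 complex I genes were called higher and 5 lower in RPFs, and 1 higher and 2 lower in total RNA.

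**Figure D3:**
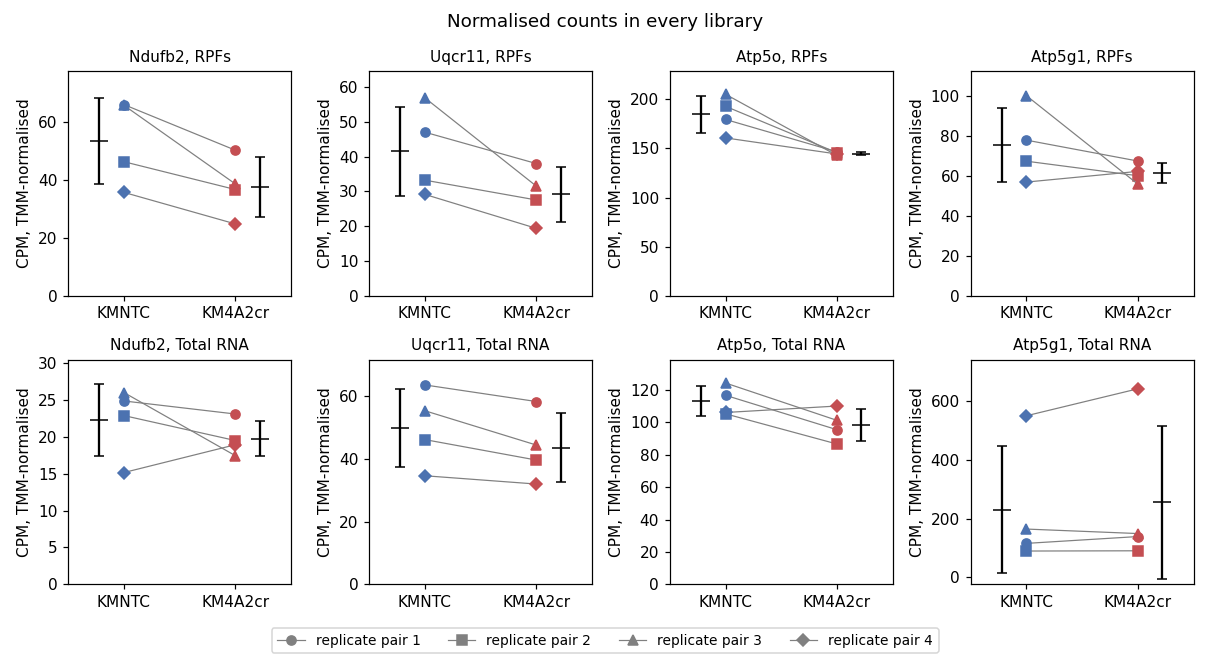
Normalised counts (CPM, TMM-normalised) of *Ndufb2*, *Uqcr11*, *Atp5o* and *Atp5g1* in every library, RPFs in the upper row and total RNA in the lower. Symbols mark the replicate pair, grey lines join the libraries of a pair, and black bars give mean and SD (n = 4). RPFs of *Ndufb2*, *Uqcr11* and *Atp5o* are lower in KM4A2cr in all 4 pairs, and total RNA of *Atp5g1* is far higher in replicate 4 of both lines.

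At the other end of complex I stood 4 accessory subunits with RPF log2 fold changes above 0.3, none of which passed the adjusted threshold. *Ndufb5* had 32.1, 36.8, 51.4 and 84.8 CPM in KMNTC and 44.8, 52.9, 53.0 and 131 CPM in KM4A2cr, higher in 4 of 4 pairs, with a log2 fold change of 0.42 (adjusted p = 0.113 by edgeR). *Ndufb10* had 35.1, 43.0, 36.0 and 68.4 CPM against 46.0, 47.0, 49.7 and 88.1, also higher in 4 of 4 pairs, with 0.34 (adjusted p = 0.148 by edgeR). In both genes replicate 4 was the highest library of its line, and within a pair the difference was smaller than the gap between replicates. *Ndufa6* was higher in 4 of 4 pairs (0.32) and *Ndufb9* in 3 of 4 (0.34). *Ndufb9* had 1.43, 1.40 and 1.42 times the KMNTC level in pairs 1 to 3 and 0.901 times in pair 4, and without replicate 4 its log2 fold change was 0.50 and called. *Ndufb5*, *Ndufb9* and *Ndufb10* belong, like *Ndufb2*, to the membrane arm.

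The 7 nuclear core subunits of complex I, which carry the flavin and the iron-sulphur clusters of the matrix arm, had an RPF median of -0.11, against 0.03 over the 30 accessory subunits tested. Of the core subunits *Ndufs3* was lower in 4 of 4 pairs, at -0.23. *Ndufs1* was at -0.18, *Ndufs7* at -0.11, *Ndufs8* at -0.10, *Ndufv1* at 0.01 and *Ndufv2* at 0.05, none called. Without replicate 4, *Ndufs3* was called lower in RPFs (-0.29) and also in total RNA (-0.34).

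Members were also set out by chromosome. The 838 genes of chromosome 2 tested in RPFs had a median log2 fold change of -0.21 against 0.005 for genes of other chromosomes, and -0.17 against 0.02 in total RNA. The 5 members tested there, *Ndufa8*, *Ndufs3*, *Atp5c1*, *Atp5e* and *Atp5g3*, had medians of -0.23 in RPFs and -0.14 in total RNA, all 5 below 0 in both. Over the 74 other members the RPF median was -0.03. The 3 complex V genes there had a median of -0.14 in RPFs and -0.14 in total RNA. The 14 complex V genes elsewhere had -0.13 and -0.01, with all 14 below 0 in RPFs. The 2 complex I genes of chromosome 2 had an RPF median of -0.29, and complex I without them 0.01. *Ndufa8*, an accessory subunit, had 68.9, 77.3, 106 and 86.4 CPM in KMNTC and 61.1, 57.2, 66.2 and 78.4 CPM in KM4A2cr, with a log2 fold change of -0.36 (adjusted p = 0.157 by edgeR). Whether the shift of chromosome 2 accounts for these values was not tested.

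Complex II, succinate dehydrogenase, is the only complex made wholly from nuclear genes, and none of its 4 genes was called. *Sdha*, the flavoprotein that oxidises succinate, had an RPF log2 fold change of -0.02 (95% interval -0.32 to 0.28), with 208, 240, 236 and 276 CPM in KMNTC and 256, 245, 209 and 234 CPM in KM4A2cr. *Sdhb*, the iron-sulphur subunit, was the highest in both readouts, at 0.13 in RPFs and 0.29 in total RNA (adjusted p = 0.349 by edgeR), where replicate 4 had 1.75 times the KMNTC level and pair 1 0.961 times. The membrane anchors *Sdhc* and *Sdhd* were at -0.09 and -0.21 in RPFs. *Sdhc* was the only member whose total RNA did not overlap between the lines, with 34.2, 34.5, 34.2 and 31.6 CPM in KMNTC and 28.1, 28.4, 28.8 and 30.9 CPM in KM4A2cr. Of all genes 1.97% did not overlap in total RNA. Its total RNA log2 fold change was -0.22 (95% interval -0.49 to 0.06, adjusted p = 0.398 by edgeR). Without replicate 4, *Sdhd* was called lower in RPFs (-0.36) and *Sdhc* in total RNA (-0.28).

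Complex III, the cytochrome bc1 complex, had an RPF median of -0.15 over 9 genes and a total RNA median of -0.02. *Uqcr11* (ENSMUSG00000020163.13), its smallest subunit, was called lower. RPFs were at 47.1, 33.3, 57.0 and 29.2 CPM in KMNTC and at 38.0, 27.6, 31.6 and 19.4 CPM in KM4A2cr. As with *Ndufb2*, KM4A2cr was lower in all 4 pairs and the lines overlapped, since replicates differed by more than the lines did. The log2 fold change was -0.50 (standard error 0.14, 95% interval -0.83 to -0.17, adjusted p = 0.0845 by edgeR, Benjamini-Hochberg). Total RNA was also lower in 4 of 4 pairs, at -0.20 (adjusted p = 0.438 by edgeR). Without replicate 1, 2 or 3 the adjusted p from edgeR lay between 0.175 and 0.405, and DESeq2 gave 0.101. The open reading frames of *Ndufb2* and *Uqcr11* are short, and the counts omit RPFs on the 20 codons at the start and the 10 at the end, so their counts rest on few codons.

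The catalytic and core subunits of complex III were closer to 0 than *Uqcr11*, but *Cyc1*, *Uqcrfs1* and *Uqcrc1* lay below the complex median of -0.15. *Cyc1*, cytochrome c1, was lower in 4 of 4 pairs in RPFs, at -0.26 (adjusted p = 0.243 by edgeR), with 68.7, 71.0, 76.6 and 47.4 CPM in KMNTC and 61.5, 59.9, 67.6 and 33.9 CPM in KM4A2cr. *Uqcrfs1*, the Rieske iron-sulphur protein, was at -0.19, and the core proteins *Uqcrc1* and *Uqcrc2* at -0.16 and 0.07. *Uqcrq* was the highest, at 0.18. *Uqcrh* RPFs were 183 CPM in KMNTC and 180 CPM in KM4A2cr in replicate 4, against 49.6 to 98.1 CPM in replicates 1 to 3, with a difference between the lines of -0.07. Without replicate 4, *Uqcr11*, *Uqcr10*, *Uqcrfs1* and *Uqcrc1* were called lower in RPFs and 0 of the 9 in total RNA.

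Complex IV, cytochrome c oxidase, had the highest median of the 5 in both readouts, at 0.07 over 12 genes in RPFs and 0.20 over 11 in total RNA, where complex I stood at 0.07. Without replicate 4 its medians were -0.05 in RPFs, below the -0.03 of complex I, and 0.05 in total RNA. None of its genes was called with all replicates. In total RNA *Cox8a*, a small subunit in its ubiquitous form, was the highest. It had 111, 86.7, 123 and 155 CPM in KMNTC and 132, 98.0, 144 and 244 CPM in KM4A2cr, higher in 4 of 4 pairs with overlapping lines, and a log2 fold change of 0.33 (95% interval 0.04 to 0.62, adjusted p = 0.211 by edgeR). Its RPFs were at 0.09, with pair 3 lower. *Cox5b*, which binds zinc, was at 0.27 in total RNA and 0.06 in RPFs, *Cox6a1* at 0.20 and -0.07, and *Cox4i1* at 0.20 and 0.10. Total RNA of *Cox4i1*, *Cox5b*, *Cox6a1* and *Cox8a* was higher in 4 of 4 pairs, while in RPFs 0 of the 12 genes went the same way in 4 pairs. *Cox5a* was near 0 in both, at 0.01 and 0.08. Without replicate 4, *Cox6b1* (-0.49) and *Cox7b* (-0.38) were called lower in RPFs, and in total RNA *Cox7c* was called higher (0.32) and *Cox7b* lower (-0.26).

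The lowest genes of complex IV were *Cox6b1*, which faces the intermembrane space, at -0.35 in RPFs (95% interval -0.76 to 0.06) and *Cox7b* at -0.25. *Cox6b1* had 178, 137, 224 and 176 CPM in KMNTC and 171, 100, 113 and 187 CPM in KM4A2cr, and the difference rests mainly on pair 3, where KM4A2cr had 0.502 times the KMNTC level. *Cox7a2l*, which is known for joining complexes III and IV into supercomplexes, had the highest log2 fold change after *Cox7a1*, at 0.27 in RPFs and 0.22 in total RNA (adjusted p = 0.577 by edgeR). Its total RNA was at 122, 96.5, 110 and 248 CPM in KMNTC and at 92.1, 120, 118 and 445 CPM in KM4A2cr. Replicate 4 was thus above all other libraries in both lines, and KM4A2cr was higher in 3 of 4 pairs. Counted with complex IV instead of complex I, *Ndufa4* (-0.005 in RPFs, 0.08 in total RNA) left the direction of both medians as it was. The complex IV medians were then 0.06 in RPFs and 0.14 in total RNA.

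Complex V, the ATP synthase, had all of its 17 genes below 0 in the RPF fit, with a median of -0.14 and values from -0.45 to -0.01, and 0 of the 17 were called. The genes share their libraries, so these are not 17 independent observations. In pairs 1 to 4 taken singly, 1, 3, 1 and 13 of the 17 were above 0, so replicate pair 4 went against the rest. Without replicate 4, 16 of 17 were below 0 with a median of -0.21 in RPFs, and 7 were called lower, against 14.3% of all genes. In total RNA the median was -0.04 with 10 of 17 below 0, and -0.21 with 13 of 17 below 0 without replicate 4, when 8 were called lower, against 12% of all genes. The all-gene median was -0.02 in both of these fits.

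The catalytic F1 head and the central stalk lay at or above the complex V median of -0.14 in RPFs. *Atp5a1* and *Atp5b*, the alpha and beta subunits, were at -0.08 and -0.04 in RPFs, and *Atp5c1*, *Atp5d* and *Atp5e*, the central stalk, at -0.14, -0.10 and -0.05. *Atp5b* had 1087 ± 112 CPM of RPFs in KMNTC and 1065 ± 182 CPM in KM4A2cr (SD, n = 4), and its 95% interval ran from -0.31 to 0.23. The peripheral stalk held the lowest true subunit. *Atp5o*, the oligomycin sensitivity-conferring protein, had 180, 193, 205 and 161 CPM in KMNTC and 146, 146, 143 and 144 CPM in KM4A2cr. It was the only member whose RPFs did not overlap between the lines, against 2.13% of all genes, and its log2 fold change was -0.35 (standard error 0.12, 95% interval -0.62 to -0.07, adjusted p = 0.139 by edgeR). Its total RNA was at -0.20, lower in pairs 1 to 3 and at 1.04 times the KMNTC level in pair 4. *Atp5j*, also in the peripheral stalk, was at -0.25 in RPFs and at -0.36 in total RNA, where it was lower in 4 of 4 pairs with 140, 123, 158 and 90.2 CPM in KMNTC and 122, 95.2, 116 and 67.5 CPM in KM4A2cr (adjusted p = 0.141 by edgeR). *Atp5f1* and *Atp5h*, the other stalk subunits, were at -0.03 and -0.03 in RPFs, nearer 0 than any of the F1 and central stalk subunits. *Atp5s* was the lowest of the 17, at -0.45 in RPFs, but with only 3.89, 16.2, 15.2 and 13.4 CPM in KMNTC and 3.26, 11.8, 11.2 and 8.62 CPM in KM4A2cr.

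The c subunit, which forms the rotating ring, comes from 3 genes whose mature proteins are identical, *Atp5g1*, *Atp5g2* and *Atp5g3*. RPFs of *Atp5g3* were at 414, 374, 398 and 283 CPM in KMNTC and at 393, 299, 280 and 250 CPM in KM4A2cr, lower in 4 of 4 pairs, with a log2 fold change of -0.27 (adjusted p = 0.235 by edgeR). Its total RNA fold change was the lowest of all members, at -0.40 (95% interval -0.70 to -0.11, adjusted p = 0.142 by edgeR), with 95.9, 70.2, 75.3 and 53.5 CPM against 88.0, 55.7, 54.3 and 32.5. *Atp5g2* was at -0.01 in RPFs and at 0.17 in total RNA. Summed over the 3 genes, RPFs were 618 ± 72.5 CPM in KMNTC and 545 ± 32.0 CPM in KM4A2cr (SD, n = 4), lower in pairs 1 to 3 and higher in pair 4. *Atp5g3* made 15.9 to 58.5% of the TPM of the 3 genes, and its lowest share in each line was in replicate 4. Total RNA CPM of *Atp5g3* itself were also lowest in replicate 4, at 53.5 in KMNTC and 32.5 in KM4A2cr. The TPM of the 3 genes include a long isoform of *Atp5g1*, with 171 TPM in KMNTC and 149 TPM in KM4A2cr of replicate 4. Whether the reads of that isoform belong to *Atp5g1* was not tested.

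*Atp5g1* (ENSMUSG00000006057.16) was the member called in translational efficiency, at -0.37 (standard error 0.11, 95% interval -0.59 to -0.14, adjusted p = 0.0952 by edgeR, Benjamini-Hochberg). RPFs were at 77.8, 67.3, 100 and 56.9 CPM in KMNTC and at 67.4, 60.0, 55.8 and 62.2 CPM in KM4A2cr, and total RNA at 116, 89.8, 165 and 551 CPM and at 139, 90.6, 149 and 643 CPM. RPFs relative to total RNA were lower in KM4A2cr in 4 of 4 pairs, and total RNA of replicate 4 was several times that of the other replicates in both lines. Between 86.2 and 98.7% of the gene's total RNA counts lay on an isoform of 4715 nt, which had 712 to 1117 expected counts in KMNTC replicates 1 to 3 and 2821 in replicate 4, and 637 to 741 and then 2754 in KM4A2cr. The isoforms of 596 and 691 nt together had 114, 102, 101 and 55 counts in KMNTC and 110, 75, 74 and 36 in KM4A2cr, with the fewest in replicate 4. With total RNA taken from those short isoforms alone, the translational efficiency value was -0.33 and no longer called (adjusted p = 0.384 by edgeR). The call was also lost by DESeq2 (adjusted p = 0.162) and without replicate 1, 2 or 3, with edgeR adjusted p-values from 0.257 to 0.530.

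**Figure D4:**
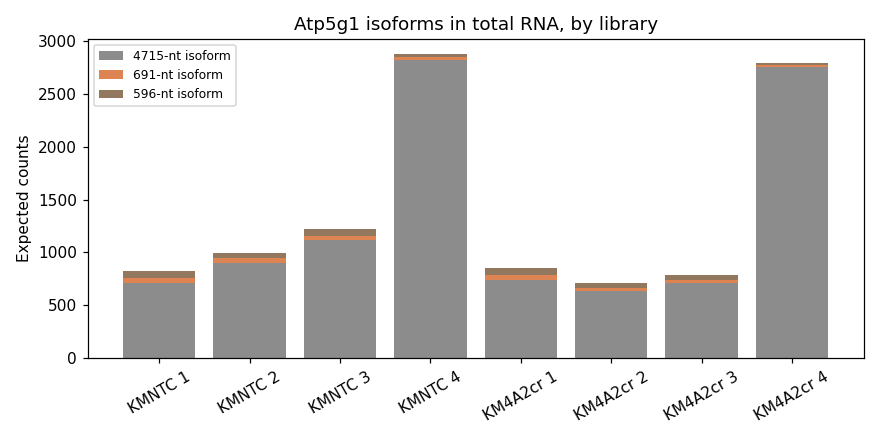
Expected counts of the 3 *Atp5g1* isoforms in the 8 total RNA libraries, as stacked bars from 0, not scaled for depth. The isoform of 4715 nt holds most counts everywhere and is the one that is higher in replicate 4 of both lines, with 2821 and 2754 counts.

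Set side by side, no complex held its sign across the 4 pairs except complex IV in total RNA, which was above 0 in each. The order also varied, but complex IV lay above complexes III and V in 4 of 4 pairs of both readouts. Complex II in RPFs and complex I in total RNA also lay above complexes III and V in every pair. In RPFs complex I had the highest median of the 5 in pair 1 (0.05) and the lowest in pair 4 (0.07). The RPF median of complex V was -0.13, -0.17, -0.37 and 0.09 in pairs 1 to 4 and that of complex IV 0.03, 0.07, -0.19 and 0.21. Complex IV exceeded complex V by 0.16, 0.23, 0.17 and 0.13 in RPFs and by 0.26, 0.28, 0.23 and 0.02 in total RNA, so in 4 of 4 pairs of each, and in total RNA barely so in pair 4. The all-gene median lay between -0.06 and 0.02 in every pair of either readout. In RPFs pair 3 had all 5 complexes below 0 and pair 4 all 5 above. In total RNA pair 4 had all 5 above 0, while in pairs 1 to 3 complexes II, III and V were below 0 and complex IV above. The SD of a complex median over the 4 pairs was 0.12 to 0.19 in RPFs, similar to or larger than the medians themselves. In total RNA it was 0.12 to 0.21 for complexes I, II, III and V, larger than their medians. For complex IV it was 0.07 beside a median of 0.20, which fell to 0.05 without replicate 4.

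**Figure D5:**
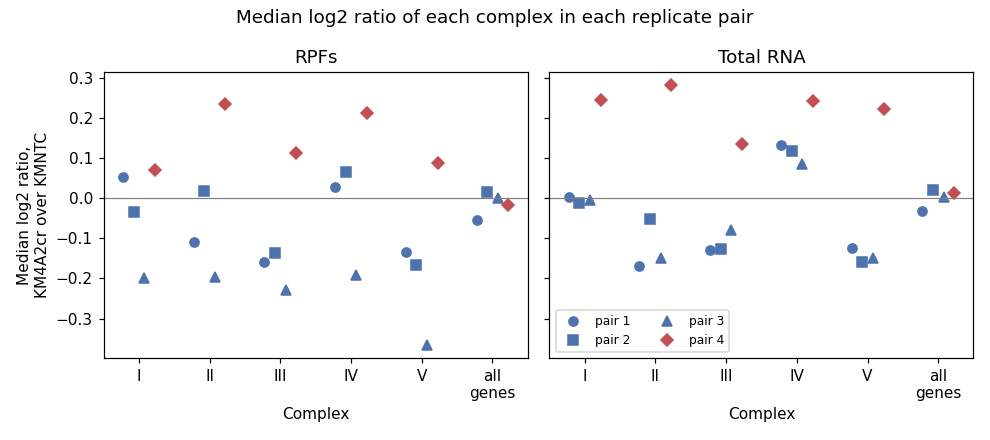
Median log2 ratio (KM4A2cr over KMNTC) of the genes of each complex in each of the 4 replicate pairs, in RPFs (left) and total RNA (right), with the median over all genes tested at the right of each panel. Pair 4 (red diamonds) is above 0 for every complex in both readouts, and complex IV lies above complex V in each pair.

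Direction across pairs gave a similar count. In RPFs 18 of 79 members went the same way in 4 of 4 pairs, 6 higher and 12 lower, against 30.1% of all genes, 14.1% higher and 16% lower. In total RNA it was 18 of 78, 11 higher and 7 lower, against 25.4%, 12.4% higher and 13% lower. Those higher in RPFs were *Ndufa6*, *Ndufb5*, *Ndufb8*, *Ndufb10*, *Uqcrb* and *Uqcrc2*. Taken as a share of each library without normalisation factors, the 86 genes made 0.928 to 1.24% of RPF counts and 0.641 to 0.752% of total RNA counts. The RPF share in KM4A2cr was 0.831, 0.883, 0.794 and 1.06 times that in KMNTC of the same pair. TPM shares, which weight short transcripts more, were 0.956, 0.929, 0.895 and 0.880 times.

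In translational efficiency the medians of all 5 complexes were below 0, at -0.06 for complex I, -0.09 for II, -0.16 for III, -0.10 for IV and -0.12 for V, against -0.02 over all genes. Without replicate 4 these medians were 0.03, -0.02, -0.06, -0.19 and 0.005 for complexes I to V, against 0.005 over all genes. By pairs the median over all 78 members was 0.05, 0.007, -0.17 and -0.13, so the sign differed between pairs 1 and 2 and pairs 3 and 4. After *Atp5g1* the smallest p was that of *Cox6b1*, at -0.31 (adjusted p = 0.130 by edgeR) and lower in 4 of 4 pairs. *Cox6a1* (-0.27), *Uqcr11* (-0.29), *Ndufb2* (-0.30) and *Ndufa7* (-0.27) were also lower in 4 of 4 pairs and not called. *Ndufb9* was the highest, at 0.27 (adjusted p = 0.189 by edgeR), with 3 of 4 pairs higher. Without replicate 4, *Ndufb9* and *Ndufb10* were called higher and *Atp5g1*, *Cox6b1* and *Ndufa7* lower, against 7.94% of all genes, 5.04% higher and 2.9% lower.

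Genes that build or serve the complexes were looked at as lists. Of 51 assembly factors, 47 were tested in RPFs, with 13 above 0, 34 below and a median of -0.13, and 1 was called. Over all genes tested in RPFs 5029 lay above 0 and 5262 below, with a median of -0.009, and 10.3% were called. *Coa3*, an assembly factor of complex IV that binds newly made COX1, fell by 0.66 in RPFs (adjusted p = 0.0806 by edgeR), with 21.3, 29.2, 37.9 and 21.6 CPM in KMNTC and 17.0, 23.5, 20.9 and 8.35 CPM in KM4A2cr. It was lower in 4 of 4 pairs with overlapping lines. *Ndufaf7*, an arginine methyltransferase that serves complex I assembly, was called lower in translational efficiency (-0.63, adjusted p = 0.0900 by edgeR).

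Of 22 genes of electron entry and electron carriers 20 were tested in RPFs, with 4 above 0, 16 below and a median of -0.17. *Coq2*, which joins the ring and the tail of ubiquinone, rose by 0.60 in RPFs (adjusted p = 0.0520 by edgeR) and by 0.43 in total RNA (adjusted p = 0.0852 by edgeR). Its RPFs were at 15.3, 19.2, 29.3 and 16.4 CPM in KMNTC and at 28.9, 30.4, 37.5 and 22.1 CPM in KM4A2cr, higher in 4 of 4 pairs. Of 21 regulators of mitochondrial biogenesis 18 were tested, with 6 above 0 and 12 below. *Esrra*, a nuclear receptor that acts on many oxidative phosphorylation genes, rose by 0.68 in RPFs (adjusted p = 0.0877 by edgeR). It had 8.15, 8.14, 7.94 and 5.45 CPM in KMNTC and 12.9, 9.35, 12.5 and 14.5 CPM in KM4A2cr. The lines did not overlap, as in 2.13% of all genes. *Pprc1*, a coactivator of the PGC-1 family, was called lower in translational efficiency (-0.52, adjusted p = 0.0543 by edgeR). These 6 calls of list genes stand beside 10.3% of all genes called in RPFs, 6.13% in total RNA and 2.87% in translational efficiency. Each was lost without replicate 1, 2 or 3, with edgeR adjusted p-values of 0.152 to 0.450. Without replicate 4, 5 of the 6 held, the exception being *Ndufaf7* (adjusted p = 0.124 by edgeR).

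NRF1, a transcription factor long linked to respiratory genes, reads a GC-rich sequence near their starts. Promoter windows from 250 bases before to 50 after the start were found for 69 of the 86 genes in RefSeq (GRCm38.p6). On either strand the letters GCGCA, any base and GCGC occurred in 17 of the 69 genes (24.6%), against 5.19% of all 27025 genes. A gene with several windows was counted once, if any of them matched. CCGGAAG, read by ETS factors such as GABP, occurred in 23.2% against 9.93%. The MYC E-box CACGTG occurred in 8.70% against 8.09%, and CCAAT in 43.5% against 41.1%. The motifs were chosen after others had been looked at, and a match is a description of letters, not a site of binding. To show the shared core in genes of different complexes, 4 of the matches are printed 5′ to 3′ with the motif in capitals, 1 each from complexes I to IV. *Cox6a1* and *Ndufa11* hold the same letters, which read alike on both strands, *Sdha* matches on the strand printed and *Uqcrc1* on the other:
Ndufa11 (complex I, chr17:56717694-56717719, plus strand): tgcactgcGCGCATGCGCgcacgcct
Sdha (complex II, chr13:74350321-74350346, minus strand): tttacaggGCGCAGGCGCaccaccac
Uqcrc1 (complex III, chr9:108936645-108936670, plus strand): tccttacaGCGCTTGCGCctcagact
Cox6a1 (complex IV, chr5:115349103-115349128, minus strand): ggaacgggGCGCATGCGCgctctcgc

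The values of genes with and without each match are a description, with no test. The 17 genes with the NRF1 letters had an RPF median of -0.03 and 151 TPM in KMNTC cells, and the 49 tested genes without them -0.04, with 165 TPM over the 52 of that group. The 16 genes with the ETS letters had an RPF median of -0.08 and 337 TPM, against -0.01 and 151 TPM for those without. For CCAAT the RPF medians were -0.07 with and 0.003 without, at 217 and 157 TPM. The 6 genes with the E-box, which MYC can bind, namely *Atp5f1*, *Atp5g1*, *Atp5g3*, *Atp5l*, *Ndufa7* and *Ndufv1*, had a median of -0.22 in RPFs and 0.02 in total RNA, against -0.03 and 0.03 for the others, and 248 TPM against 157. Of the 6, 4 belong to complex V.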

How the data were processed

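RPFs and cytoplasmic total RNA of KMNTC and KM4A2cr cells were compared in 16 libraries, 4 of each kind per line. For RPFs the authors deposited counts per transcript, made with Cutadapt 1.18, UMI-tools 1.0.1 and BBmap against a filtered GENCODE vM27 protein-coding set with the most abundant transcript of each gene. The authors left out footprints on the 20 codons at the start and the 10 at the end, which leaves few counted codons in the shortest subunits. The total RNA files the authors deposited hold RSEM 1.3.3 expected counts and TPM for each isoform, after Bowtie2 2.3.5.1. Both were summed here per gene, a transcript missing from an RPF file was taken as 0, and expected counts were rounded.

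edgeR 4.0.16 in R 4.3.3 was used for tests (quasi-likelihood, glmQLFit and glmQLFTest) after filterByExpr and TMM scaling inside each kind of library, in a model of cell line plus replicate block. Benjamini-Hochberg correction ran across all tested genes, and 0.1 was the threshold. For translational efficiency 1 model held all 16 libraries, its lysates and its replicates of each kind, and the term tested was line by kind. Fold changes are KM4A2cr over KMNTC. CPM carry the TMM factors, with a prior count of 2 on the log2 scale. The scripts were tested on simulated data first. A change common to all genes leaves no trace after such scaling.

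The replicate number was a block because deviations from the line means correlated between libraries of 1 number, at 0.575 to 0.782 in RPFs and 0.611 to 0.756 in total RNA. The labels give different days and no other batch. Standard errors and 95% intervals are approximate. They were computed here from edgeR's log2 fold change, F statistic and degrees of freedom. The alternatives were no block, DESeq2 1.42.0, other scalings, filters and thresholds, each replicate left out, and the RPF isoform only. Fits of *Atp5g1* from its short isoforms, and medians without chromosome 2, were added after results had been seen.

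Members and lists were chosen with earlier results of these data known. Genes were named if called, if core subunits or paralogue isoforms, if highest or lowest of their complex in RPFs, or if called in a pathway list. *Ndufb9*, *Ndufb10*, *Ndufa6*, *Ndufa7*, *Ndufa8*, *Atp5o*, *Atp5j*, *Atp5h* and the other members outside that rule were named after their values were seen. Chromosomes were matched to RefSeq on GRCm38.p6, another build than that of the files, by Ensembl gene identifier or, failing that, by symbol. RPF levels were not compared between genes, as coding lengths were not used here. Values of 1 member, and an engineered allele that both lines carry, are not reported here, and counts and medians include that member.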

Additional observations from a re-analysis of the deposited data

Results flagged for a closer look

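Of 158 groups of 4 libraries examined (each named gene in each line and kind of library), 17 held 1 library far from the other 3 by Dixon's 95% limit, where chance alone gives about 1 in 20. In 16 of the 17 the far library was replicate 4. Calls and medians without replicate 4 are given above, and why it differed was not tested.

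In KM4A2cr RPFs, replicate 4 was high for *Atp5e* at 251 CPM against 98.9 to 101 in replicates 1 to 3, for *Cox8a* at 233 against 79.1 to 96.9 and for *Ndufb5* at 131 against 44.8 to 53.0. It was low for *Cox7a1* at 1.62 CPM. In KMNTC RPFs it was high for *Cox7a2l* at 106 CPM against 39.7 to 44.1. *Eif4a2*, the targeted gene, stood at 389 CPM in KMNTC and 346 CPM in KM4A2cr.

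In KM4A2cr total RNA, replicate 4 was high for *Atp5c1* at 377 CPM, *Atp5d* at 67.5 CPM, *Atp5g2* at 88.7 CPM, *Cox7a2l* at 445 CPM and *Atp5g1* at 643 CPM. In KMNTC total RNA it was high for *Atp5g1* at 551 CPM, *Cox7a2l* at 248 CPM and *Eif4a2* at 524 CPM, and low for *Sdhc* at 31.6 CPM against 34.2 to 34.5. The exception is *Atp5a1* in KMNTC total RNA, where replicate 2 had 318 CPM against 266 to 271.

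RPFs and total RNA of *Atp5g1* differed in their response to the line, by the interaction test of edgeR, at -0.369 on the log2 scale, a value that lost its call with the short isoforms alone.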

How the results depend on the processing

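Without the replicate block, 0 members were called in RPFs, total RNA or translational efficiency. The members lower in RPFs numbered 2 in the reported fit, 1 by DESeq2, 7 with scaling by library size alone, 0 at an adjusted p of 0.05 and 0 to 19 with a replicate left out, and those higher 0 to 3. In total RNA 0 were lower in the reported fit, 5 with library size alone, 1 (*Atp5g3*) without a filter on low counts and 0 to 12 with a replicate left out, and those higher 0 to 2. In translational efficiency the 1 lower call became 0 by DESeq2, by upper-quartile factors, by library size alone and at 0.05, and 0 to 3 with a replicate left out, with 0 to 2 higher. In each case the upper count is that without replicate 4.

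With library size alone the all-gene RPF median shifted by -0.14 and that of total RNA by -0.16. The complex I median came to -0.12 in RPFs and -0.0857 in total RNA, and in total RNA that of complex III to -0.18 and of complex IV to 0.041. Relative to all genes they moved by at most 0.0065. With a replicate left out, the total RNA median of complex IV ran from 0.051 to 0.18. The sign of the RPF medians of complexes I, II and IV differed between such fits, while complexes III and V stayed below 0 in each alternative run. In total RNA the medians of complexes II, III and V differed in sign between such fits. Complex II was at 0.024 and complex III at 0.049 without replicate 1, and complex V at 0.010 without replicate 3. The medians of complexes I and V kept their sign without chromosome 2.

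For single genes, 1632 alternative values were computed for 133 results. Of these 65 lost a call, 36 gained one and 96 changed sign without a call on either side. *Ndufb2* and *Uqcr11* stayed below 0 in RPFs throughout.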
